A study of Mus musculus with 6 samples.

Results

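Named small nucleolar RNAs (snoRNAs) and small Cajal body RNAs were followed in NIT-1 cells, a mouse pancreatic beta cell line, with and without cadmium. A gene was a member if its symbol began with Snora (box H/ACA snoRNAs), Snord (box C/D snoRNAs) or Scarna (small Cajal body RNAs). This gave 40 of the 18884 genes tested: 10 H/ACA, 25 C/D and 5 Cajal body RNAs. Each of the 40 had its own pattern of values over the 6 arrays. Another 33 symbols of these families stood only on transcript clusters that list several genes and are not named here, whereas the mouse RefSeq annotation holds 142 such symbols. The series asks what changes in total RNA after a cadmium dose that its submitters describe as causing oxidative damage. Cells of both groups were plated for 24 h and then kept for another 24 h, the cadmium group (3 arrays) in medium with 4 µmol/L cadmium sulphate (CdSO4) and the control group (3 arrays) in culture medium without it. The medium held fetal bovine serum, penicillin and streptomycin in both groups. All samples come from 1 established line and are labelled biological replicates, with nothing said on separate passages. The p-values therefore cover only the spread among these samples, which may be technical.

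SnoRNAs are short nuclear RNAs that base-pair with other RNAs and carry a modifying enzyme to them. Box C/D snoRNAs bind fibrillarin (Fbl), Nop56, Nop58 and Snu13 and mostly guide ribose methylation of ribosomal RNA, whereas box H/ACA snoRNAs bind dyskerin (Dkc1), Gar1, Nhp2 and Nop10 and mostly guide pseudouridylation. Small Cajal body RNAs do the same for the small nuclear RNAs of the spliceosome, inside Cajal bodies. In mammals most of these RNAs are cut out of the introns of host genes, many of which encode ribosomal or translation proteins.

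Values are log2 signals, 1 per gene and array, and a change is the cadmium mean minus the control mean. A level is the brightness of 1 probe set and cannot be set against the level of another. The level that 95% of negative control probes stay under averaged 6.18 over the arrays (6.12 to 6.25), and is called the background bound below. Of the 40 members 16 lay above it in both group means and 24 below it in both. Of all 18884 genes 2000 lay above it in both group means and 16424 below it in both. Array medians were 3.34 to 3.40, and the cadmium medians averaged 0.049 above those of the control. Control replicate 3 and cadmium replicate 1 differed from the other 4 arrays along the second principal component, which held 15.6% of the variance over all genes. Control replicate 3 was also the lowest control array for 11 of the 16 members above the bound, whereas over all genes it was the lowest in 37.0%. Of 16 beta cell markers 6 were measured under a single name (Ins2, Iapp, Pdx1, Slc2a2, Nkx6-1 and G6pc2), and none of these 6 rose above the bound in either group mean. The other 10 were not analysed here. The sum of the log2 values of these 6 ran from 22.6 to 23.5 in the control and from 23.3 to 23.4 in the cadmium arrays. Of the 3 measured stromal, endothelial and immune markers (Col3a1, Vim and Ptprc) only Col3a1 changed. It fell by 1.01 (limma adjusted p = 0.0018), whereas Vim and Ptprc had changes of 0.16 and 0.06 that did not pass. The sum of the log2 values of the 3 was 15.2 to 15.5 in the control and 14.4 to 14.6 in the cadmium arrays. Only Col3a1 of the 3 had a change below 0, so this sum does not describe them as a set. The part of these markers in the results below was not tested. In bulk RNA, fewer cells of a type and less RNA per cell cannot be told apart.

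With cadmium, 4 of the 40 members fell, 0 rose and 36 did not pass the test (limma, adjusted p under 0.05 over all 18884 genes). Snord73a, Snora30, Scarna8 and Snora7a were lower by 0.35 to 0.59 on the log2 scale, and all 4 lay below the background bound in both group means, though the control mean of Scarna8 equals it when rounded (6.18). Of the 16424 genes below the bound in both group means 730 were called lower and 814 higher. Over all genes 12.2% were called, 5.72% as lower and 6.47% as higher. The members' share called lower was 10.0%, and its difference from that background was not tested. By limma's unadjusted p under 0.05, 10 members were lower and 0 higher, beside 2144 and 3322 of the 18884 genes. The median change of the members was -0.08, beside 0.04 over all genes, with 25 changes below 0 and 15 above it. Leaving out control replicate 2 gave -0.0174, leaving out cadmium replicate 3 gave -0.0552, and leaving out control replicate 3 gave -0.147. With each array centred on its median the members' median was -0.13 and that of all genes -0.0044, and 6 members were called lower, the same 4 with Scarna10 and Snord35b (over all genes then 7.96% lower and 4.40% higher).

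In 10 members every cadmium array read below every control array, and in 0 members above. The share over all genes was 13.0% for the first pattern and 22.9% for the second. The 10 were Snora30, Snora68, Snora7a, Snord35b, Snord73a, Snord87, Snord88c, Snord89, Scarna8 and Scarna10. The changes of all 40 ran from -0.59 (Snord73a) to 0.23 (Snord110).

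**Figure D1:**
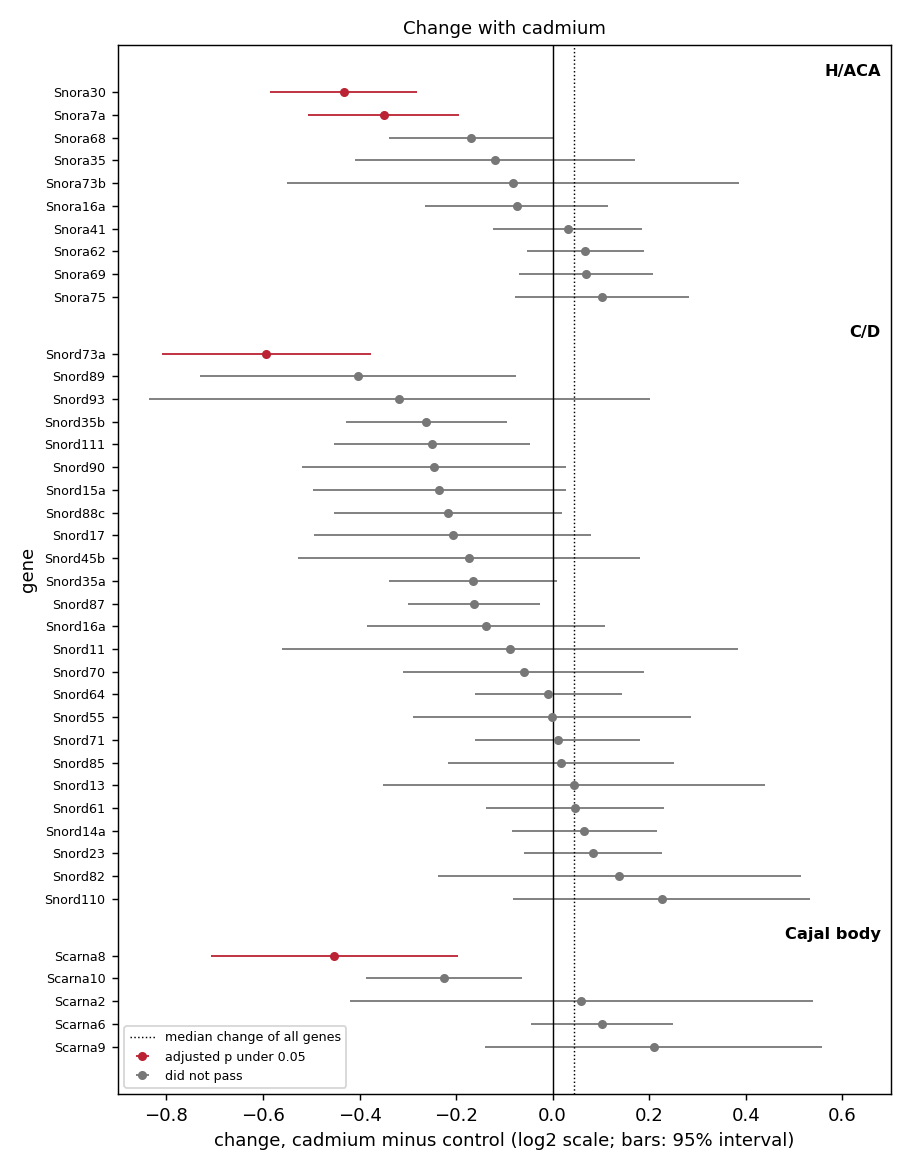
Change of each of the 40 RNAs, cadmium minus control on the log2 scale, with bars for the 95% interval of the limma fit. The 4 called RNAs, Snord73a, Scarna8, Snora30 and Snora7a, lie at -0.59, -0.45, -0.43 and -0.35, and the highest change is 0.23.

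Box H/ACA RNAs, the pseudouridylation guides, had 2 of 10 members lower and 0 higher (over all genes 5.72% and 6.47%). Their median change was -0.08 (-0.0095 without control replicate 2 and -0.0189 without cadmium replicate 3). Snora30 read 5.11, 5.22 and 5.29 in the control arrays and 4.79, 4.82 and 4.71 in the cadmium arrays. All 3 cadmium arrays lay below all 3 control arrays, and the change of -0.43 ± 0.06 (SE) passed (limma adjusted p = 0.0070). Snora7a, which lies within the ribosomal protein gene Rpl32, read 5.32, 5.21 and 5.33 against 5.04, 4.85 and 4.93. The groups again did not overlap, and the change was -0.35 ± 0.07 (SE, limma adjusted p = 0.017). The call for Snora7a was lost when control replicate 1 or cadmium replicate 2 or 3 was left out (adjusted p of 0.0673, 0.0613 and 0.0649), whereas Snora30 stayed under 0.05 when any single array was left out.

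The H/ACA members above the background bound were Snora73b, Snora41 and Snora68. Snora73b is known for a role in the processing of the ribosomal RNA precursor. It read 8.54, 8.44 and 9.11 in the control and 8.92, 8.51 and 8.41 in the cadmium arrays. Control replicate 3 and cadmium replicate 1 were the highest of their groups, the groups overlapped, and the 95% interval of the change ran from -0.55 to 0.39. Snora68 read 6.81, 6.97 and 6.75 against 6.65, 6.74 and 6.63. Here the groups did not overlap, but the nearest arrays read 6.75 and 6.74, and the change of -0.17 did not pass (limma adjusted p = 0.17). Snora41 averaged 6.93 ± 0.07 and 6.96 ± 0.09 (SD, n = 3 each), with an interval of -0.12 to 0.19. The largest positive differences in the class were those of Snora75, Snora69 and Snora62, at 0.10, 0.07 and 0.07, none of which passed. The 2 members not yet given, Snora35 and Snora16a, were at -0.12 and -0.07.

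Box C/D RNAs, the methylation guides, had 1 of 25 members lower and 0 higher (over all genes 5.72% and 6.47%). Their median change was -0.14 (-0.0871 without control replicate 1 and -0.0701 without control replicate 2), with 17 changes below 0. Snord73a, which lies within the ribosomal protein gene Rps3a1, read 5.13, 4.94 and 5.12 in the control and 4.64, 4.43 and 4.35 in the cadmium arrays. The nearest arrays were the 4.94 of control replicate 2 and the 4.64 of cadmium replicate 1, and the change of -0.59 ± 0.09 (SE) was the lowest among the members (limma adjusted p = 0.0081). It passed the threshold with any single array left out. The next lowest changes in the class were those of Snord89 and Snord93, both with a wide spread. Snord89 read 6.19, 6.36 and 5.81 in the control and 5.76, 5.80 and 5.58 in the cadmium arrays, a change of -0.40 that did not pass (limma adjusted p = 0.11). Without control replicate 3, the lowest control array, it passed.

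Snord93 read 8.45, 8.49 and 7.86 in the control and 7.54, 8.20 and 8.10 in the cadmium arrays. Control replicate 3 and cadmium replicate 1 were the low arrays of their groups, the groups overlapped, and the 95% interval ran from -0.84 to 0.20. Without these 2 arrays, an alternative chosen after seeing the data, the change was -0.32 and passed (limma adjusted p = 0.033).

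The C/D members with the brightest probe sets were Snord55, Snord87 and Snord35a. Snord87 lies within the non-coding host gene Snhg6 and Snord35a within the ribosomal protein gene Rpl13a. Snord55 read 9.74, 9.66 and 9.28 in the control and 9.52, 9.67 and 9.50 in the cadmium arrays. Its group means were 9.56 in both, and the interval of -0.29 to 0.29 holds changes of either sign. Snord87 read 9.28, 9.25 and 9.31 against 9.20, 9.11 and 9.04. The groups did not overlap, with a change of -0.16 that did not pass (limma adjusted p = 0.12) but did so after quantile normalization (adjusted p = 0.028). Snord35a read 8.99, 9.03 and 8.83 against 8.75, 8.88 and 8.71, with overlapping groups and a change of -0.16 (limma adjusted p = 0.19).

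Snord35b read 6.60, 6.56 and 6.44 in the control and 6.25, 6.38 and 6.19 in the cadmium arrays. The groups were apart, at 1.20-fold higher in the control if the log base is 2, and the change of -0.26 came close to the threshold without passing (limma adjusted p = 0.057). The other C/D members above the bound were Snord16a, Snord13, Snord17, Snord11, Snord71 and Snord23, with changes between -0.21 and 0.08. Snord13, which guides an acetylation of the small-subunit ribosomal RNA and is transcribed from a gene of its own, averaged 7.10 ± 0.25 and 7.14 ± 0.28 (SD, n = 3 each). Its interval ran from -0.35 to 0.44. Snord23, within Nop53, was the highest of these 6 at 0.08 ± 0.06 (SE), which did not pass. Among all 16 members above the bound the largest difference corresponded to 1.25-fold (Snord93), 0 passed the test, and 4 of the 95% intervals lay below 0 while 12 held it. Of the 2000 genes above the bound in both group means 9.8% were called lower and 15.85% higher. By limma's unadjusted p under 0.05, 332 of these 2000 were lower and 550 higher. The difference of the 16 members from these genes was not tested.

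The remaining 12 C/D members were below the bound in both groups. Their changes ran from -0.25 for Snord111 and for Snord90 to 0.23 for Snord110, none of which passed. Snord111 read 4.22, 4.44 and 4.34 in the control and 3.99, 4.23 and 4.03 in the cadmium arrays and the groups overlapped at their nearest arrays. Snord88c, the last of the members without overlap, read 5.30, 5.36 and 5.45 against 5.28, 5.25 and 4.93, a change of -0.22 carried mostly by cadmium replicate 3. Snord110, within Nop56, and Snord82, within nucleolin (Ncl), had the highest changes at 0.23 and 0.14. Snord110 read 3.04, 2.87 and 2.81 against 3.40, 2.88 and 3.12, with overlapping groups. Snord64, of an imprinted snoRNA locus, averaged 1.39 ± 0.08 and 1.38 ± 0.07 (SD, n = 3 each), far under the bound.

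**Figure D2:**
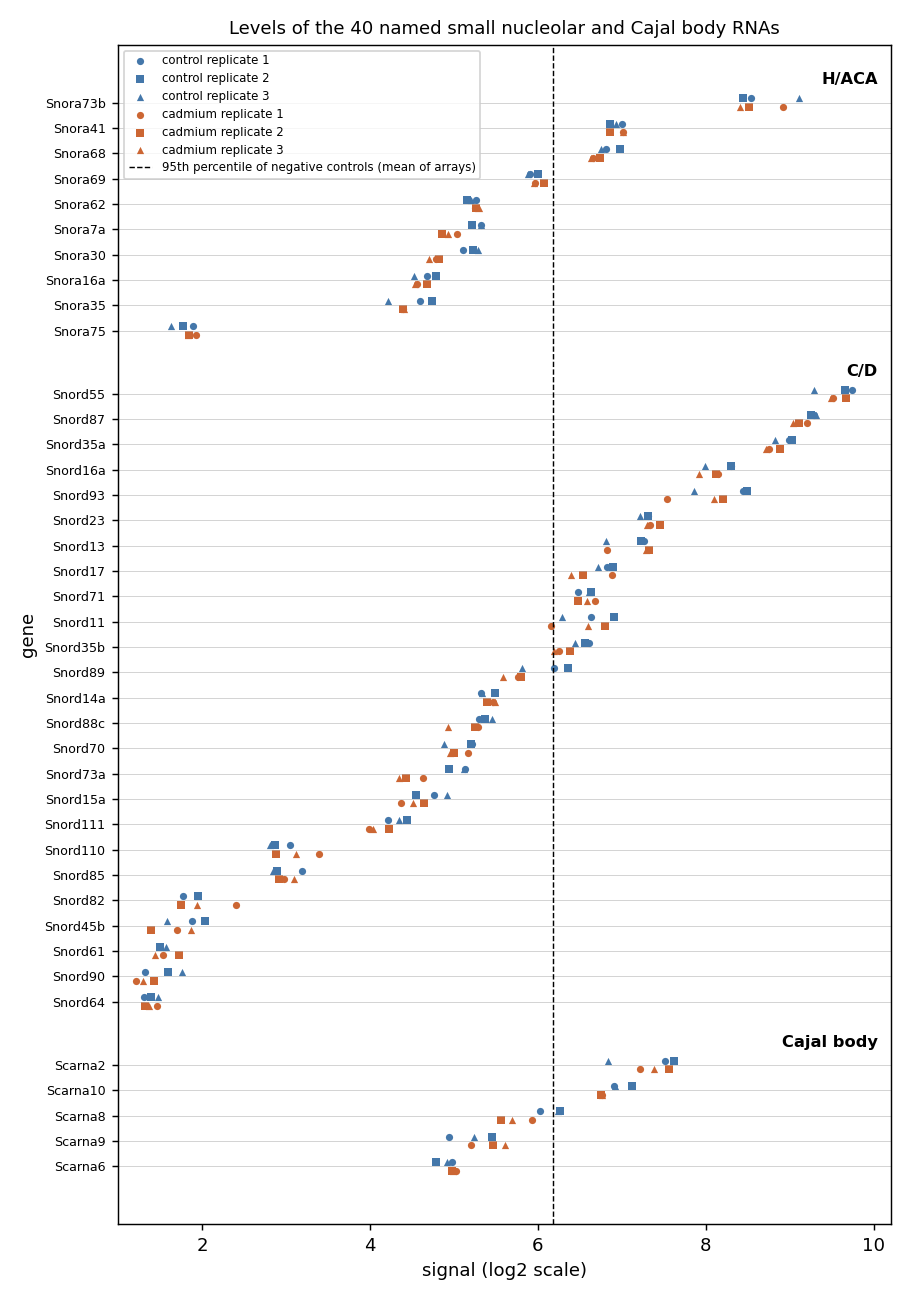
Log2 signal of each of the 40 RNAs on every array, control and cadmium in separate colours, grouped as H/ACA, C/D and Cajal body, with a dashed line at the background bound of 6.18. Levels are not comparable between RNAs, 16 RNAs lie above the line in both group means, and for most of them the colours overlap.

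The Cajal body RNAs, guides for spliceosomal RNAs, had 1 of 5 members lower and 0 higher (over all genes 5.72% and 6.47%), with a median change of 0.06. Scarna8, within Haus6, read 6.02, 6.26 and 6.24 in the control and 5.93, 5.56 and 5.69 in the cadmium arrays. The groups did not overlap, and the change was -0.45 ± 0.11 (SE, limma adjusted p = 0.039). This call was lost when control replicate 1, 2 or 3 or cadmium replicate 2 or 3 was left out (adjusted p between 0.0503 and 0.128). Scarna10, within Ncapd2, read 6.90, 7.12 and 6.92 in the control and 6.76, 6.75 and 6.76 in the cadmium arrays. The cadmium arrays were nearly alike and lay below all control arrays, at a change of -0.23 that did not pass (limma adjusted p = 0.079) and that passed after centring (adjusted p = 0.044).

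The other 3 Cajal body RNAs had changes above 0, none of which passed. Scarna2, which has no annotated host, read 7.52, 7.63 and 6.84 in the control and 7.22, 7.57 and 7.38 in the cadmium arrays. Control replicate 3 was again far below its group, and the interval of the change ran from -0.42 to 0.54. Scarna6 and Scarna9 were below the bound, with changes of 0.10 and 0.21. The sign of the median of the 5 was not stable. It was -0.19 without control replicate 3, -0.03 without cadmium replicate 2 and -0.003 after quantile normalization, and it was also below 0 for the 2 members above the bound.

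**Figure D3:**
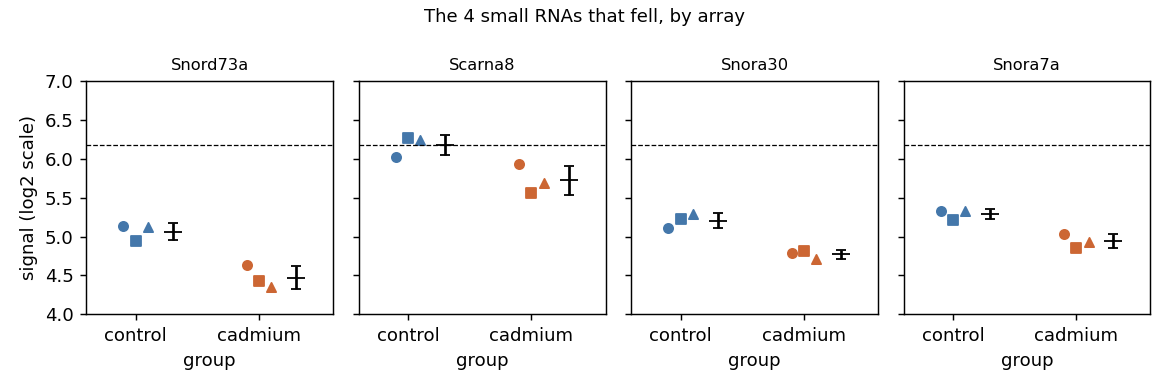
Log2 signal of Snord73a, Snora30, Snora7a and Scarna8 on each array, with circles, squares and triangles for replicates 1, 2 and 3, the group mean ± SD (n = 3) beside them and a dashed line at the background bound. Every cadmium array lies below every control array in all 4 panels, and the nearest arrays are closest for Scarna8 (6.02 and 5.93).

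Beside the members the array held 604 snoRNA genes without such a symbol (504 distinct patterns). Of the 604, 27 were called higher and 8 lower, and the median change was 0.09. Centred arrays gave 15 in each direction. Only 27 of them lay above the bound in both means, so most of these values are near background. Genes annotated as small nuclear RNAs, among them Rn7sk (7SK) and Rnu3a, showed 251 of 559 called higher and 2 lower, many of which are copies that can share probes. This class is wider than the RNAs that Cajal body RNAs guide. Protein-coding genes had 573 of 11607 higher and 966 lower. With centred arrays these counts were 234 and 3 for small nuclear RNA genes, and 362 and 1320 for protein-coding genes. Differences between these classes and the members were not tested.

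**Figure D4:**
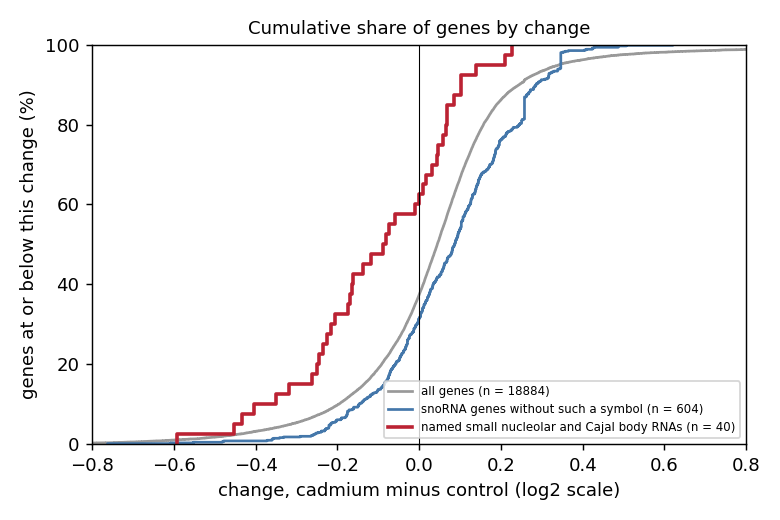
Cumulative share of genes against the change (cadmium minus control, log2 scale) for the named members, the snoRNA genes without such a symbol and all genes. The members' curve crosses its midpoint at -0.08, that of all genes at 0.04 and that of the unnamed snoRNA genes at 0.09.

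Of the 40 members 37 lay inside the span of another RefSeq gene, called the host here, and 3 in none (Scarna2, Snord13 and Snord89). The table used gives no strand, so the span alone decides. Hosts were measured under a single name for 24 members, which gave 26 pairs with 24 host genes. Member and host had the same sign of change in 11 of the 26 pairs, and in 15 with centred arrays. Across the 26 pairs the changes had a Pearson r of 0.21 and a Spearman rho of 0.17, given as a description, since pairs share arrays and some share a host.

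Of the 24 hosts 5 were called lower (Haus6, Srcap, Sf3b3, Ncapd2 and Ap1g1) and 1 higher (Nop58), of which Sf3b3 and Ap1g1 were chosen for naming after their values were seen. These shares of 20.8% lower and 4.17% higher stood beside 5.72% and 6.47% over all genes, a difference that was not tested. Most of the hosts are protein-coding, and of all protein-coding genes 8.32% were called lower and 4.94% higher. Srcap, a chromatin remodeller and the host of Snora30, read 5.87, 5.94 and 6.07 in the control and 5.66, 5.46 and 5.50 in the cadmium arrays. Its change of -0.42 (limma adjusted p = 0.016) stood beside -0.43 for Snora30. Haus6, a subunit of the augmin complex of the spindle and the host of Scarna8, read 4.15, 4.15 and 3.97 against 3.79, 3.80 and 3.82, a change of -0.29 (limma adjusted p = 0.029) beside -0.45 for Scarna8. In these 2 pairs both RNAs fell, with no overlap between groups in any of the 4. The call for Srcap was lost when control replicate 2 or cadmium replicate 2 or 3 was left out (adjusted p of 0.0558, 0.0612 and 0.0641), and that for Haus6 without any 1 array other than control replicate 3 (0.0606 to 0.105).

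Ncapd2, a condensin subunit and the host of Scarna10, read 5.74, 5.78 and 5.62 in the control and 5.14, 5.31 and 5.19 in the cadmium arrays. Its change was -0.50 (limma adjusted p = 0.0049), beside -0.23 for Scarna10. Sf3b3, a spliceosome protein and the host of Snord111, read 7.25, 7.30 and 7.10 against 6.68, 6.61 and 6.65. It fell by 0.57 (limma adjusted p = 0.0026), whereas the change of Snord111 was -0.25 and did not pass. Ap1g1, of a clathrin adaptor, had a change of -0.32 (limma adjusted p = 0.016), beside 0.01 for Snord71. The call for Ap1g1 was lost without control replicate 2 or cadmium replicate 2 or 3 (0.0577, 0.0613 and 0.0639).

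Rps3a1, the host of Snord73a, read 5.66, 5.68 and 6.14 in the control and 5.95, 5.64 and 5.62 in the cadmium arrays, with overlapping groups. Its change was -0.09 (limma adjusted p = 0.73), beside -0.59 for Snord73a. The host of Snora7a, Rpl32, was not measured under a single name.

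Nop58 encodes a core protein of box C/D particles and spans 2 members, Snord11 and Snord70. It read 7.98, 7.96 and 8.15 in the control and 8.36, 8.76 and 8.78 in the cadmium arrays, and rose by 0.60 (limma adjusted p = 0.021). The call was lost without control replicate 1 or 2 or cadmium replicate 2 or 3 (adjusted p of 0.0752, 0.0798, 0.0773 and 0.0756). Snord11 read 6.63, 6.91 and 6.28 against 6.16, 6.80 and 6.60, with overlapping groups, and Snord70 read 5.22, 5.20 and 4.88 against 5.17, 5.00 and 4.95. Their changes of -0.09 and -0.06 did not pass.

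The difference between a member and its host on the same array was compared between groups for the 7 pairs whose host was called, a choice made after seeing the data. The shift in that difference was -0.69 for Snord11 and -0.66 for Snord70 with Nop58, 0.33 for Snord71 with Ap1g1, 0.32 for Snord111 with Sf3b3 and 0.27 for Scarna10 with Ncapd2. It was -0.16 for Scarna8 with Haus6 and -0.01 for Snora30 with Srcap. The two-sided exact permutation p was 0.1 for Snord11, Snord71, Snord111 and Scarna10 (0.175 after Benjamini-Hochberg adjustment over the 7), 0.2 for Snord70, 0.4 for Scarna8 and 0.8 for Snora30. Since 3 arrays against 3 cannot give a p under 0.1, none of these shifts could reach 0.05. The pairs were also picked by a host change on these same arrays, and that change enters the shift. A shift opposite to the host is therefore partly built in, and no conclusion is drawn from these p-values.

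**Figure D5:**
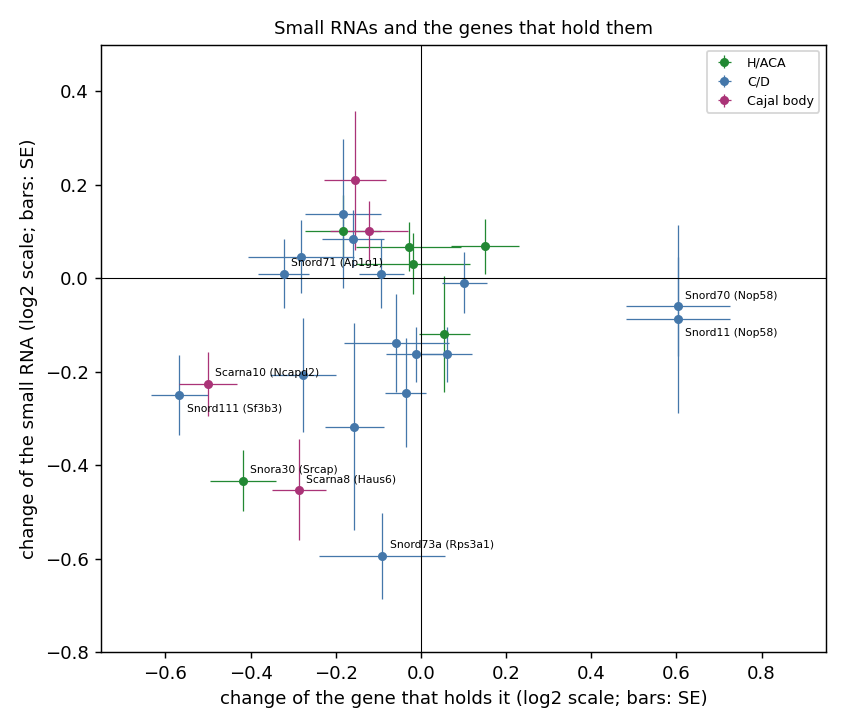
Change of each small RNA against the change of the gene whose span holds it, for 26 pairs, both on the log2 scale with bars for the SE and colours for the class. Snord11 and Snord70 lie at a host change of 0.60 (Nop58) with their own changes near 0, and Snord73a lies at -0.59 with a host change of -0.09 (Rps3a1).

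Core proteins of the snoRNA particles had 2 of 5 measured genes higher (9 listed) and 0 lower. Besides Nop58, Gar1 of the H/ACA particle read 5.67, 5.68 and 5.77 in the control and 5.91, 5.94 and 5.95 in the cadmium arrays. It rose by 0.23 (limma adjusted p = 0.030), a call that was lost after centring (adjusted p = 0.073) and without control replicate 1 or 2 or cadmium replicate 2 or 3 (0.0962 to 0.109). Fbl, the methyltransferase, and Dkc1, the pseudouridine synthase, had changes of 0.10 and 0.13, and Nop10 of 0.04, none of which passed.

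Factors that assemble snoRNA particles or act in Cajal bodies had 1 of 14 measured genes higher (26 listed) and 2 lower. Larp7, which binds 7SK RNA and takes part in U6 modification, rose by 0.51 (limma adjusted p = 0.040). Naf1, an H/ACA assembly factor, fell by 0.30 (limma adjusted p = 0.014), and Ddx20, a helicase of the SMN complex, fell by 0.69 (limma adjusted p = 0.028). Ddx20 read 5.02, 5.14 and 5.15 in the control and 4.78, 4.17 and 4.30 in the cadmium arrays, so cadmium replicate 1 lay closest to the control. The calls for Larp7 and Ddx20 were lost when control replicate 1, 2 or 3 or cadmium replicate 2 or 3 was left out (adjusted p of 0.0793 to 0.129 for Larp7 and 0.0672 to 0.0965 for Ddx20), and that for Larp7 after centring (0.0591). The call for Naf1 was lost without control replicate 2 or cadmium replicate 3 (adjusted p of 0.0607 and 0.0565).

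Genes of RNA polymerase I, ribosomal RNA processing and ribosome assembly had 1 of 26 measured genes higher (49 listed) and 3 lower. Rrp9, a protein of the U3 snoRNA particle, rose by 0.19 (limma adjusted p = 0.049). The nucleases Exosc10 and Xrn2, which trim snoRNA and ribosomal RNA precursors, fell by 0.30 and 0.26 (limma adjusted p of 0.0099 and 0.034), and the acetyltransferase Nat10, whose guide is Snord13, fell by 0.31 (adjusted p = 0.039). Exosc10 read 6.14, 6.13 and 6.19 against 5.89, 5.82 and 5.84, with no overlap, and passed with any single array left out. Leaving out any 1 of the 6 arrays ended the calls for Rrp9 (adjusted p of 0.0611 to 0.151) and Xrn2 (0.0646 to 0.109). Any array other than cadmium replicate 1 did the same for Nat10 (0.0829 to 0.124). Rrp9 also did not pass after centring (0.12), with genes above the bound alone (0.053) or with limma's trended and robust prior variance (0.0671).

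Non-coding snoRNA host genes had 0 of 5 measured genes called (22 listed), by limma's unadjusted p under 0.05 also 0 (over all genes 2144 lower and 3322 higher of 18884), and 5 genes are too few to read against that background. Their changes ran from -0.02 to 0.10, and all 5 lay below the bound. Protein-coding snoRNA hosts had 1 of 16 measured genes higher (47 listed) and 1 lower. The chaperone Hspa8 rose by 0.28 (limma adjusted p = 0.028), and Ptcd3, a mitochondrial translation protein, fell by 0.23 (limma adjusted p = 0.034). Hspa8 did not pass after centring (adjusted p = 0.0554) or quantile normalization (change 0.03, adjusted p = 0.799). Nor did Hspa8 pass with limma's trended and robust prior variance (adjusted p = 0.153) or a replicate block (0.0748). Leaving out control replicate 1, 2 or 3 or cadmium replicate 2 or 3 ended both calls (adjusted p of 0.0521 to 0.101 for Hspa8 and 0.0603 to 0.114 for Ptcd3). Other structured small RNAs, such as 7SK, RNase MRP and the Y RNAs, had 1 of 11 measured genes higher (23 listed) and 0 lower. This was Bc1, a cytoplasmic RNA polymerase III transcript of rodents, which read 9.68, 9.65 and 9.57 in the control and 10.21, 10.30 and 10.54 in the cadmium arrays. It rose by 0.71 (limma adjusted p = 0.0036), a call that quantile normalization removed (change 0.27, adjusted p = 0.26). Over the 75 genes of these lists 6 were called higher and 6 lower, beside 6.47% and 5.72% over all genes.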

How the data were processed

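Per the labels, biotin-labelled total RNA from 3 control and 3 cadmium cultures was hybridised to 6 arrays. The log2 values deposited by the authors, 1 per transcript cluster and array, were used without further scaling. The log2 scale is inferred from their range, and a fold holds only if the base is 2. The authors' background correction, normalization and software, not given in the sources used here, may shift the values of dim probes. The table held 39746 transcript clusters and 6732 control probes, and 0 columns of values without a sample. Clusters with 1 gene (19099) were named from the platform annotation, updated through RefSeq (GRCm38.p6). Clusters with several genes (1046) or none (19601) were not named, and the brightest probe stood for a gene. No coordinates are given, since no source used here gives the probes' build.

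All 18884 genes were fitted together by lmFit and eBayes of limma 3.58.1 (R 4.3.3) on group alone, two-sided, and p-values were adjusted after Benjamini-Hochberg over all of them. Intervals are 95% intervals of that fit. Members, lists and tests were chosen with earlier results of these data known. Named members are those past the threshold, every Scarna RNA, and the 3 brightest and 3 largest changes in each direction of each class, with the called genes of 6 lists and the hosts of named members. Other members were named to account for all 40, after their values were seen. Same-numbered arrays of the groups had correlations of their deviations of -0.11, 0.06 and -0.11 over all genes, so the replicate numbers were not taken as pairs. The highest correlation of a control with a cadmium array was that of control replicate 3 with cadmium replicate 1. It was 0.16 over all genes and 0.47 over the members, and a shared batch was not tested. Alternatives covered the scaling, filters on level, the choice of probe, the variance model, array weights, a replicate block, each array left out and stricter calls. No snoRNA sequence is printed. Figures were drawn with matplotlib 3.10.9.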

Additional observations from a re-analysis of the deposited data

How the results depend on the processing

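Across the alternatives run, 0 members were called higher, and no called gene of the naming rule, nor Sf3b3, Ap1g1 or Col3a1, changed direction. Of 279 values of the summary counts and medians under an alternative, 82 moved beyond their margin, as listed here. The 4 called members lie below the background bound, which limits what their values show, and each group has 3 arrays. Most of all genes lie below that bound too. The cause of each change was not tested, other than that a filter removes genes and a stricter rule removes calls.

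The members called lower numbered 1 with genes above the bound alone (Snord35b, of 16 members left), 2 at an adjusted p of 0.01, 0 by treat against a minimum change of 0.26, and 8 without control replicate 3 and cadmium replicate 1 together, an alternative chosen after seeing the data. In that last alternative more of all genes were called as well, both higher and lower, than with every array kept. The count of 8 was not tested against that background and is not read as specific to the members. The members called lower ranged from 2 to 6 with single arrays left out. Without overlap between groups there were 4 lower members above the bound, 17 lower and 3 higher without those 2 arrays, and 10 to 16 lower and 0 to 5 higher with single arrays left out. Of the 2000 genes above the bound in both group means 17.35% were lower without overlap and 28.55% higher. Groups of fewer arrays separate more easily, and the share over all genes was not computed for the sets with arrays left out. The counts with arrays left out therefore cannot be read as a stronger fall of the members. The members' median change was -0.18 after quantile normalization and -0.147 to -0.0174 with single arrays left out.

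H/ACA members called lower numbered 0 above the bound and by treat, 1 at 0.01 and 1 to 3 with single arrays left out. Their median was -0.13 centred, -0.15 after quantile normalization and -0.0875 to -0.0095 with single arrays left out. C/D members called lower numbered 2 centred, 2 after quantile normalization, 2 at or above the median level and 3 with array weights. Centred arrays and quantile normalization also gave more lower calls over all genes, 1504 and 1396 beside 1080 in the fit used above. So did the filter at the median level and the array weights. The C/D counts in these settings were not tested against that background and are not read as specific to the class. C/D members called lower numbered 0 by treat and 1 to 3 with single arrays left out. The C/D median was -0.21 after quantile normalization and -0.1601 to -0.0701 with single arrays left out. Cajal body members called lower numbered 2 centred, 0 above the bound, at 0.01 and by treat, and 0 to 1 with single arrays left out, with a median of -0.1855 to 0.0872 under the latter.

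Over all genes 476 were called higher and 399 lower above the bound, 446 and 418 at 0.01, 274 and 154 by treat, 1874 higher with array weights, and 605 to 1320 higher and 529 to 1040 lower with single arrays left out. List genes called higher numbered 2 centred, 1 at 0.01, 1 by treat and 1 to 6 with single arrays left out. List genes called lower numbered 2 above the bound, 12 with array weights, 1 at 0.01, 0 by treat and 1 to 8 with single arrays left out.

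With the replicate number as a block, 742 genes were called higher and 644 lower, 3 members lower (0 of the Cajal body class, as Scarna8 had a limma adjusted p of 0.102), and 2 list genes in each direction. The hosts Srcap, Haus6 and Ap1g1 also lost their calls with the block (limma adjusted p of 0.0522, 0.0767 and 0.0542). The sample titles do not pair the arrays. Numbers in the source names do not follow the replicate numbers of the titles, and the titles were used.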

Other observations

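Clusters that list several genes were left out above because they cannot be named. Of these, 27 list a member symbol, in 25 distinct patterns. Their median change was -0.01, with a range of -0.63 to 0.46. In 5 patterns every cadmium array read below every control array, and in 5 above, beside shares of 13.0% and 22.9% over all genes.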
